A study of Homo sapiens and Mus musculus with 74 samples.

Results

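Ribosome profiling (Ribo-seq) of whole kidney was set against whole brain in wild-type (WT) mice, to see which proteins each tissue spends its ribosomes on. The libraries were chosen by their labels alone and numbered 6, namely 3 WT kidney and 3 WT brain Ribo-seq libraries, of 74 samples in the series. Both tissues came from 10-week-old male Rpl41+/+ mice, each of the 3 replicates being a biological replicate. The study made an Rpl41 knockout (KO) by editing C57BL/6J zygotes, and 3 KO kidney and 3 KO brain Ribo-seq libraries from other mice, together with 3 WT kidney and 3 WT brain RNA-seq libraries, served as further readouts. Nothing in the sources says whether a kidney and a brain with the same number came from the same mouse.

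In Ribo-seq, RNase digests the mRNA between ribosomes, and the short fragments that ribosomes protect, called footprints, are sequenced. The share of footprints on a coding sequence therefore reflects how many of the ribosomes sit on it, which depends on mRNA abundance, on initiation and elongation, and on the length of the protein. The kidney reabsorbs filtered solutes through transporters of the tubule, largely fuelled by fatty acid oxidation, and the cells of its proximal tubule also make glucose. The brain relies on glycolysis and on ion gradients for signalling, and its neurons carry synaptic vesicle, receptor and cytoskeletal proteins over long distances.

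Several enzyme and transporter families have 1 member that is known for the kidney and another for the brain. Counts can tell such members apart only where their coding sequences differ, so the start of 1 pair is shown as an example. Eef1a1 (chromosome 9, 78478449 to 78489151, minus strand) and Eef1a2 (chromosome 2, 181147653 to 181157014, minus strand) encode the elongation factor that brings aminoacyl-tRNA to the ribosome. The sequences are the first 120 coding bases, 5′ to 3′, of the GENCODE M21 transcripts (GRCm38), and capitals mark the bases at which the members differ.
Eef1a1: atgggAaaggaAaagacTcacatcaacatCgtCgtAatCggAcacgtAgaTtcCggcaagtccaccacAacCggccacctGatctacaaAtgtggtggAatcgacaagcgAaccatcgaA
Eef1a2: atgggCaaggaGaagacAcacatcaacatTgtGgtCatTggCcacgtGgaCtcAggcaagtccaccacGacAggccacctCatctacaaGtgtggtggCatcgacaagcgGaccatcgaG
They differed at 18 of these bases, and no stretch of 28 bases, about the length of a footprint, was common to the whole coding sequences of both. Other pairs were less distinct. Of the 28-base windows of Tuba1b, 73.8% also lay in Tuba1a, both of which encode alpha tubulins, so a footprint on most of that sequence fits both genes.

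Each gene was represented by the transcript with its longest protein. On these 22484 transcripts the WT kidney libraries held 3711826 to 7115695 counts and the WT brain libraries 2401861 to 5652410, and 17849 to 19137 genes had a count in a library. The libraries of a tissue resembled each other (Pearson r of log2 counts scaled to the library total, CPM, across genes 0.978 to 0.982 in kidney and 0.971 to 0.977 in brain) far more than those of the other tissue (0.316 to 0.333). Genes are not replicates, so these values describe the libraries only.

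Some footprints lay on genes known for tissues other than those on the label, and they were not spread evenly. Genes for 11 proteins that the liver makes, chosen after their values were seen, held 0.0753 to 0.219% of brain footprints and 0.00213 to 0.00632% of kidney footprints. Alb, which encodes serum albumin, had 2957, 2295 and 1692 footprints in the brain libraries and 240, 34 and 40 in the kidney libraries. Brain RNA-seq, by contrast, gave only 34 to 42 Alb counts per library. KO brain Ribo-seq libraries, from other mice, held 1177 to 2713 Alb footprints, so the pattern was not limited to the WT mice. All 11 of these genes were called brain-higher in footprints by the test described below. Pancreatic digestive enzymes, a list of 10 also chosen after values were seen, stood out in kidney replicate 1 and brain replicate 1. Amy2a5, a pancreatic amylase, had 4075, 29 and 238 footprints in kidney and 1515, 3 and 7 in brain. All 10 missed the call. For Amy2a5 the log2 difference was 1.31 (adjusted p = 0.43 from edgeR), but it was -1.24 without kidney replicate 1 and 7.57, and then called, without brain replicate 1. Hemoglobin and other erythroid genes held 0.709% of the footprints of brain replicate 2 and 0.738% of the counts of the WT brain RNA-seq library with that number, against 0.255 to 0.267% in the other two WT brain Ribo-seq libraries. The part of blood and of other tissues in the results was not tested.

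**Figure D1:**
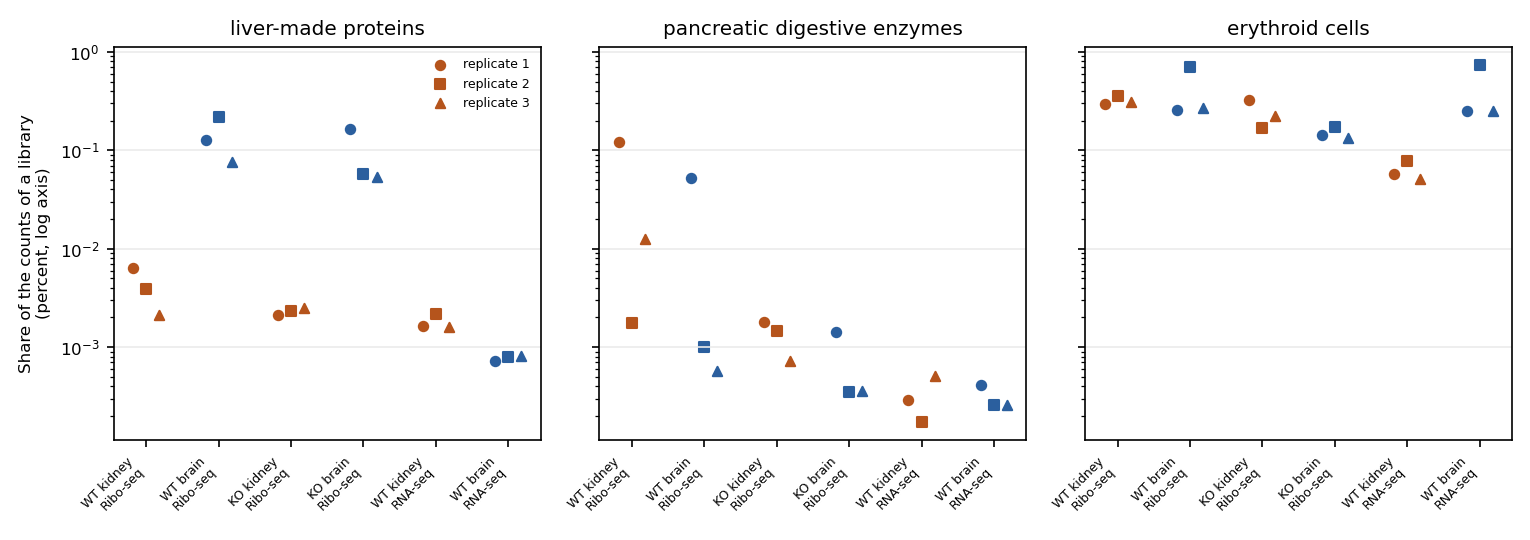
Share of the counts of each library (percent, log axis) on genes for 11 liver-made proteins, 10 pancreatic digestive enzymes and 6 erythroid genes, with kidney libraries in orange, brain libraries in blue and the symbol giving the replicate number. The liver-made proteins lie at 0.0753 to 0.219% in WT brain Ribo-seq and under 0.001% in WT brain RNA-seq, and the pancreatic enzymes are highest in WT kidney replicate 1 and WT brain replicate 1.

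The footprints of kidney and brain differed for most of the genes that could be tested. Of 14918 genes tested by edgeR's quasi-likelihood test, 11233 passed an adjusted p of 0.05 (Benjamini-Hochberg over all genes tested). A gene was called only if it also differed at least 2-fold. By that rule 3803 genes, 25.5% of those tested, were higher in kidney and 4105, or 27.5%, were higher in brain. The median log2 difference of all tested genes (kidney minus brain, used throughout) was 0.03, and it was -0.18 with scaling by library totals alone, which gave 3314 kidney-higher and 4572 brain-higher calls. In bulk tissue, fewer cells of a type and less RNA per cell cannot be told apart.

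The genes that took the most kidney footprints were those of tubular uptake and of small-molecule metabolism. Lrp2, which encodes megalin, the endocytic receptor of the proximal tubule (chromosome 2, 69424340 to 69586065, minus strand), had 39349, 24527 and 18300 footprints in kidney and 150, 18 and 74 in brain. Every kidney library was far above every brain library, at 5486 ± 535 against 16.4 ± 10.9 CPM (SD, n = 3). The log2 difference was 8.52 (standard error 0.40, adjusted p = 3.9e-09 from edgeR). Slc34a1, the phosphate transporter of the proximal tubule (chromosome 13, 55398187 to 55415592, plus strand), had 31978, 21266 and 17464 footprints in kidney and 2, 4 and 4 in brain. Its ratio of 7221 in favour of kidney had a 95% exact interval of 3926 to 15059, which covers counting error only. The brain libraries were thus nearly empty of this transporter. Other leaders in kidney included mt-Co1, Kap, Gpx3, Cyp4b1, Ass1 and Slc27a2, with mean levels of 3335 to 5509 CPM. Of the windows of Ass1 86%, and of those of mt-Co1 67%, were shared with other genes, so their levels are less certain. Kap, a kidney protein controlled by androgen (chromosome 6, 133849851 to 133853762, minus strand), had 21112, 17266 and 17556 footprints in kidney and 1, 0 and 1 in brain. Among the called genes with at least 10 counts in each library, the largest kidney differences were those of Keg1 (9.89), Ugt3a2 (9.25), Lrp2, Glyat (8.15) and Cyp2a4 (8.02), all on the log2 scale. Glyat conjugates acyl groups to glycine and Cyp2a4 is a cytochrome P450. A share of 64% of the 28-base windows of Cyp2a4 also lay in other genes, so its counts may include those of a relative.

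The leaders in brain included secreted and lysosomal proteins and a glutamate transporter. Slc1a2, the main glutamate transporter of astrocytes (chromosome 2, 102658659 to 102790784, plus strand), had 12715, 5749 and 13891 footprints in brain and 42, 20 and 22 in kidney, or 2423 ± 32.4 against 5.57 ± 0.591 CPM (SD, n = 3). The log2 difference was -8.55 (standard error 0.18, adjusted p = 1.5e-10 from edgeR), and the groups did not overlap. Other leaders in brain included mt-Co1, Sparcl1, Psap, Ubb, Hspa8, App, Cpe and Apoe, with mean levels of 2140 to 3033 CPM. Not all of these leaders marked the brain. Psap, the precursor of lysosomal saposins (log2 difference -0.25, adjusted p = 0.15), Ubb, a polyubiquitin (-0.09, adjusted p = 0.65), Hspa8, a constitutive cytosolic chaperone (0.31, adjusted p = 0.08), and App, the amyloid precursor protein (-0.77), were not called. Windows shared with other genes made up 83% for Ubb, 95% for Hspa8 and 67% for mt-Co1, so their counts may include those of other genes. Cpe, which processes prohormones (-4.86), Sparcl1 (-5.57) and Apoe, the lipid carrier (-2.39), were called brain-higher. Among the called genes with at least 10 counts in each library, the largest brain differences included those of Slc1a2, Map1a (-8.39), Kif1a (-8.34) and Rtn1 (-8.24). Map1a binds microtubules and Kif1a is a motor that carries synaptic vesicle precursors.

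Counted per codon, which removes the effect of protein length on the number of footprints, the order changed towards small proteins. The highest genes in kidney included Kap, Gpx3, mt-Atp8 and mt-Co1. Gpx3, the secreted glutathione peroxidase that the kidney makes, and Kap, at 226 and 121 amino acids, stood above Lrp2, a protein of 4660 amino acids. In brain the 5 highest were Ubb (with 83% of its windows shared with other genes), Snap25, Ptgds, Cst3 and mt-Atp8. Ptgds makes prostaglandin D in the brain (-6.75) and Cst3 encodes cystatin C, a secreted protease inhibitor (-1.89), and both were called brain-higher.

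**Figure D2:**
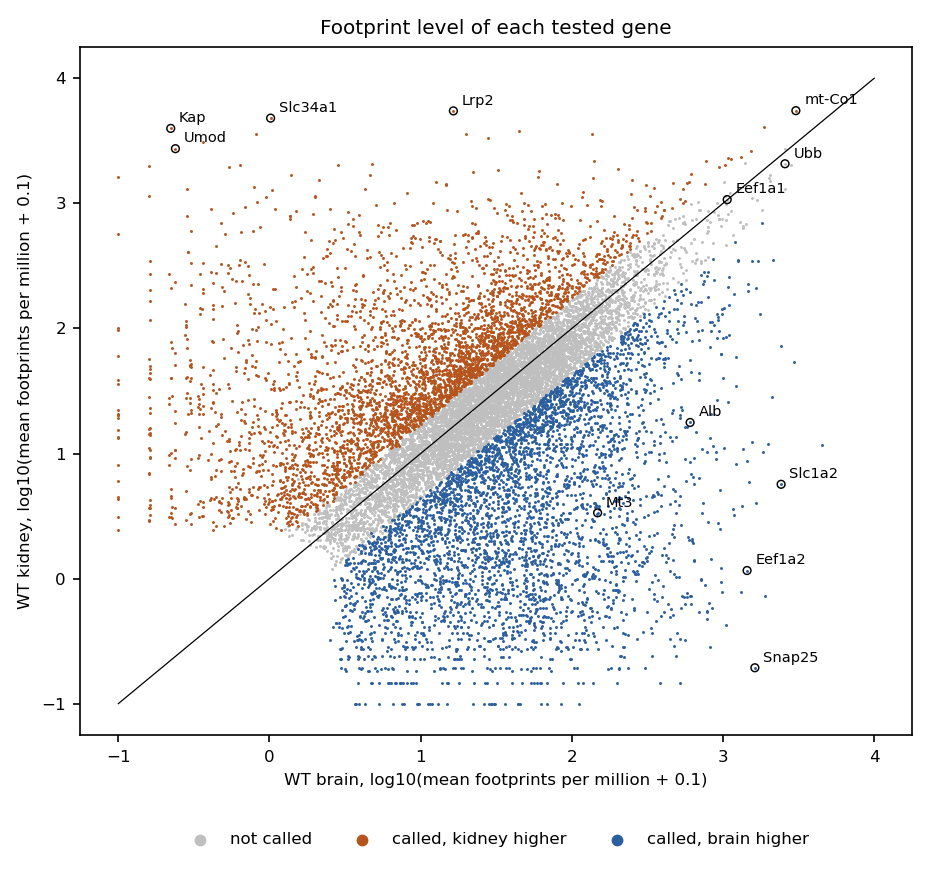
Mean footprint level of each tested gene in WT brain (x) and WT kidney (y), as log10 of CPM plus 0.1, with genes called kidney-higher in orange, called brain-higher in blue and not called in grey, and the line of equal levels in black. Kap, Umod and Slc34a1 lie at the upper left with under 1 CPM in brain, Snap25 at the lower right, and Eef1a1 and Ubb near the line.

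Tubular transport and metabolism set the kidney apart. All 25 transporters and receptors of the proximal tubule were called kidney-higher, against 25.5% of all tested genes, with a median log2 difference of 7.14 beside 0.03 for all genes. They held 2.70, 2.99 and 2.66% of kidney footprints and 0.0653, 0.0587 and 0.0710% of brain footprints. The tissues did not overlap, and the smallest difference in the list, that of the sodium bicarbonate cotransporter Slc4a4, was 2.00. All 10 brush border peptidases were also called kidney-higher. They ranged from Ace, the angiotensin-converting enzyme (2.21), to Mep1a, a subunit of the meprin metalloprotease, with 12814, 8380 and 7862 footprints in kidney and 0, 0 and 1 in brain.

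All 26 genes of fatty acid oxidation were called kidney-higher, and their share was 1.84 ± 0.135% in kidney against 0.158 ± 0.00935% in brain (SD, n = 3). Acsm2, a medium-chain acyl-CoA synthetase, had the most footprints and the largest difference, with 19781, 13201 and 12382 in kidney and 2, 1 and 0 in brain. Hadhb, the beta subunit of the mitochondrial trifunctional protein, had the smallest at 1.79, but 95% of its 28-base windows were shared with other genes. All 6 genes of gluconeogenesis and fructose handling were called kidney-higher, from Pcx, pyruvate carboxylase (3.47), to G6pc, the glucose-6-phosphatase that releases free glucose (7.26). Enzymes listed as renal amino acid metabolism gave 13 of 15 called kidney-higher. The member with the largest difference was Miox, which opens the ring of myo-inositol and is not an enzyme of amino acids, with 13172, 8559 and 7943 footprints in kidney and 2, 3 and 0 in brain. Bhmt, which makes methionine from homocysteine and is abundant in liver, was called brain-higher (-2.07), with 231, 140 and 146 footprints in brain and 70, 34 and 27 in kidney. Its RNA was called in the opposite direction (2.45), it was not called in KO footprints, and 94% of its windows were shared with other genes. The liver-made proteins above were higher in the same brain libraries, and their part in this value was not tested.

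Other segments of the nephron were seen as well. Of 19 genes of the loop of Henle, distal tubule and collecting duct, 17 were called kidney-higher, beside 25.5% of all tested genes. Umod, which encodes uromodulin, the main protein of normal urine, had 19204, 11733 and 9796 footprints in kidney and 0, 1 and 0 in brain. Its ratio of 41600 had a lower 95% bound of 7466. Pvalb, a calcium-binding protein of both the distal tubule and of inhibitory neurons, was the exception in direction, at 206, 137 and 105 in kidney and 763, 518 and 1095 in brain (-2.40). Of 8 podocyte genes, 5 were called kidney-higher and 2 brain-higher, among them Ptpro (-2.12). For comparison, 25.5% of all tested genes were called kidney-higher and 27.5% brain-higher. Markers of endothelium were called kidney-higher in 6 of 10, with Emcn (3.34) the largest, while Cldn5, the tight junction claudin of brain vessels, was the only one brain-higher (-1.02). It lost the call without brain replicate 1 (-0.68), kidney replicate 2 (-0.97) or kidney replicate 3 (-0.86).

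Genes of synapses, axons and excitability were higher in brain. All 25 genes of the presynaptic vesicle machinery were called brain-higher, against 27.5% of all tested genes. They held 1.45, 1.52 and 1.39% of brain footprints and 0.0157, 0.0152 and 0.0192% of kidney footprints, a ratio of means of 87.2. Snap25, a SNARE protein of vesicle fusion (chromosome 2, 136713453 to 136782428, plus strand), had 7555, 4756 and 8234 footprints in brain and 2, 0 and 0 in kidney. The ratio of 10058 had a 95% interval of 2784 to 83062. The smallest difference among the 25 was that of Vamp2, a vesicle SNARE (-3.56).

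All 16 voltage-gated channel genes were called brain-higher, and their share was 0.372 ± 0.0536% in brain against 0.00397 ± 0.00021% in kidney (SD, n = 3). Scn2a, a sodium channel, had the most footprints of them (-7.98), and Scn1a the largest difference. All 23 genes of the neuronal cytoskeleton and transport were called, with Map1b (-7.15) the highest in footprints and Mapt, which encodes tau, the smallest in difference (-1.11). Mapt had 1090, 488 and 432 footprints in kidney and 1743, 851 and 1606 in brain, so tau was not absent from kidney. Of 24 postsynaptic receptors and scaffolds, 21 were called brain-higher and 3 were not called. Camk2a, the calcium and calmodulin kinase of the synapse, had 7321, 3501 and 6107 footprints in brain and 5, 1 and 4 in kidney. Gphn, the gephyrin scaffold of inhibitory synapses, which also makes the molybdenum cofactor in other tissues, was slightly higher in kidney (0.41, adjusted p = 0.01) and below the 2-fold limit.

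Glial lists were less uniform than neuronal ones. Of 14 oligodendrocyte and myelin genes, 10 were called brain-higher, 1 kidney-higher and 3 neither. For all tested genes the levels were 27.5% brain-higher and 25.5% kidney-higher. Aspa, which splits N-acetylaspartate, was the one higher in kidney, with 1313, 763 and 979 in kidney and 208, 80 and 203 in brain (2.75). In the astrocyte list 12 of 14 were called brain-higher and 1, Aldh1l1 of folate metabolism, kidney-higher (2.93), with 5486, 2782 and 2831 footprints in kidney and 604, 307 and 536 in brain. These enzymes carry the name of a brain cell type in the list, yet their footprints were more numerous in kidney. Microglia and macrophage markers were called brain-higher in 9 of 12. The median of that list was -1.29 and P2ry12 had the largest difference (-7.11). Of 6 choroid plexus genes, 3 were called kidney-higher, including Kl, the klotho co-receptor (3.77), and Folr1, a folate receptor (5.05), and 3 brain-higher, including the transcription factor Otx2 (-4.12).

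**Figure D3:**
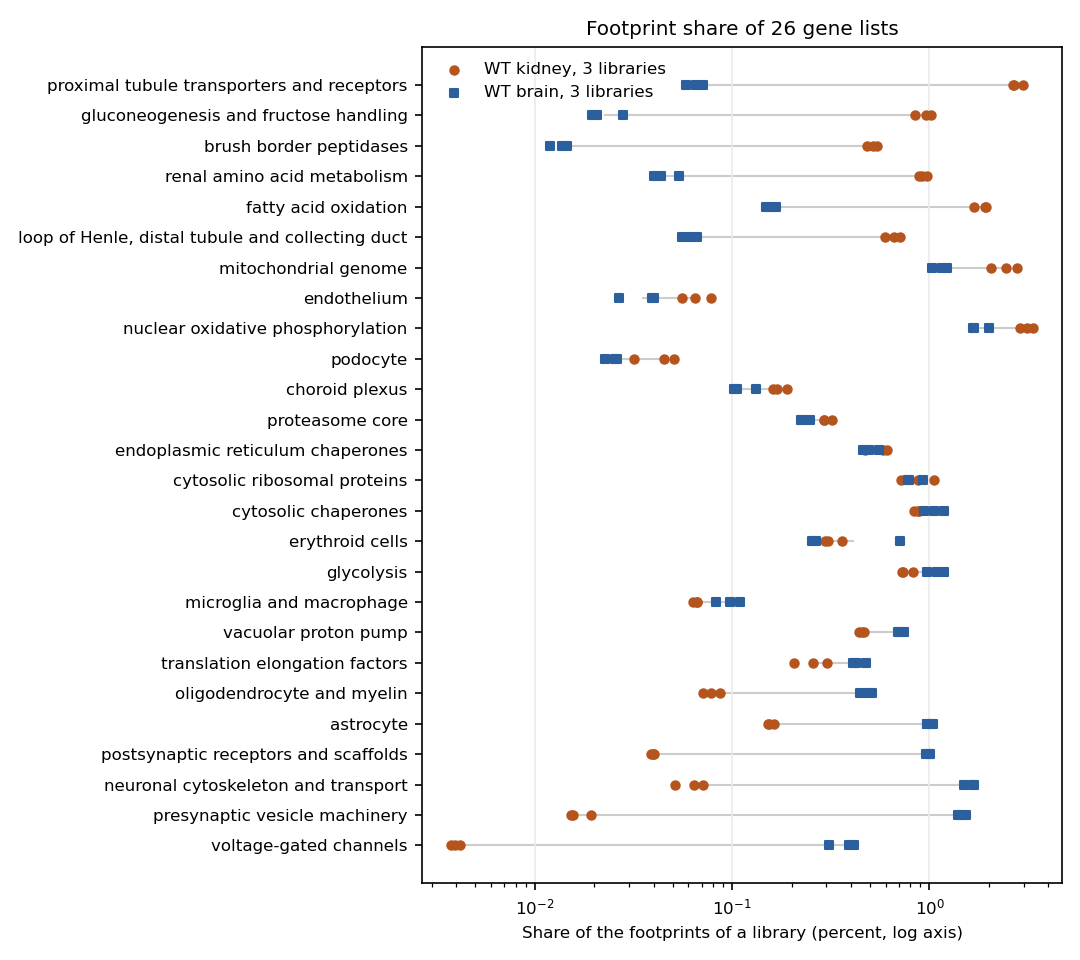
Share of the footprints of each WT library (percent, log axis) on 26 gene lists, ordered by the ratio of the tissue means, with the 3 kidney libraries as orange circles and the 3 brain libraries as blue squares. Transport and metabolism of the tubule lie 10.7 to 42.8 times higher in kidney at the top, voltage-gated channels 93.8 times higher in brain at the bottom, and ribosomal proteins and chaperones close together in the middle.

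The shares did not overlap between the tissues for 23 of the 26 lists. The exact permutation test over libraries gave p = 0.1 for each of these (two-sided), which is the smallest value that 3 against 3 libraries allow, and 0.11 after adjustment over the lists. No list could pass a threshold of 0.05 by this test. The 3 lists that overlapped were erythroid cells, chaperones of the endoplasmic reticulum and cytosolic ribosomal proteins. Such separation was also usual for single genes. Of 14918 tested genes, 5059 were higher in every kidney library than in any brain library, 6537 were the reverse and 3322 overlapped.

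Energy metabolism differed by a smaller factor than tissue-specific transport. All 13 protein-coding genes of the mitochondrial genome were called kidney-higher, within a narrow range of log2 differences from 1.05 for mt-Co3 to 1.71 for mt-Nd5. Their share was 2.06, 2.43 and 2.78% in kidney and 1.16, 1.03 and 1.22% in brain. These genes were counted in the same total as nuclear genes. Whether footprints of mitochondrial and nuclear genes were recovered equally well was not tested, so ranks across the 2 kinds are uncertain. mt-Co1, a subunit of cytochrome c oxidase, had the highest mean CPM in kidney, with Lrp2 close behind it and above it in kidney replicates 1 and 2, and the second highest in brain (1.08, adjusted p = 9.8e-05 from edgeR). It lay near the 2-fold limit and fell below it, at 0.99, without kidney replicate 3, as did mt-Co3 (0.92) and mt-Atp8 (0.94), and mt-Co3 also without brain replicate 2 (0.99). Of 77 nuclear genes of oxidative phosphorylation, 35 were called kidney-higher, none brain-higher and 42 neither, with a median of 0.94. Sdhd, a membrane subunit of succinate dehydrogenase, had the largest difference (2.15). Cox7a2l lay at -0.01, and 63% of its windows were shared with other genes. Glycolysis was mixed, with 6 of 15 tested genes called brain-higher, 2 kidney-higher and 7 neither, beside 27.5% and 25.5% of all tested genes. The share of the 16 listed genes was 1.09 ± 0.108% in brain against 0.762 ± 0.0517% in kidney (SD, n = 3). Gapdh had only 13, 3 and 2 footprints in kidney and 8, 4 and 3 in brain on the transcript used. It was not tested and adds almost nothing to this share. Eno2, neuronal enolase, had 4358, 2222 and 4127 footprints in brain and 6, 4 and 8 in kidney. Ldha (1.26) and Ldhb (1.11), the lactate dehydrogenase subunits, were the 2 that were higher in kidney, with 62% and 58% of their windows shared.

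Few genes for ribosomal proteins, the proteasome and chaperones were called, beside 25.5% kidney-higher and 27.5% brain-higher of all tested genes. Of 79 cytosolic ribosomal protein genes, 77 were not called, with a median log2 difference of 0.26, and their share was 0.881 ± 0.166% in kidney and 0.832 ± 0.0817% in brain (SD, n = 3). Of them 74 shared more than 50% of their 28-base windows with other genes, so a single member is uncertain. Rpl29 was 1 of the 2 called, at 159, 85 and 91 footprints in kidney and 64, 29 and 51 in brain. Of the 14 core subunits of the proteasome, 13 were not called, and Psma4 was slightly above the limit (1.08). Their median was 0.66, and their share was 0.301 ± 0.0165% in kidney against 0.232 ± 0.0144% in brain (SD, n = 3), without overlap. Among chaperones of the endoplasmic reticulum only P4hb, a protein disulfide isomerase, was called (1.82), and among 17 cytosolic chaperones only Hspa4l was, in brain (-1.75). The globin genes Hbb-bs and Hbb-bt gave -0.16 each, and without brain replicate 2 both turned to 0.46. Of the windows of each, 94% were shared with other genes, so the 2 values may rest largely on the same reads.

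Many families used different members in the 2 tissues. In each of 29 pairs of related genes, the share of the pair's footprints on 1 member was given per library. The pairs were picked for known tissue preference, so the direction is a description. For the glucose transporters Slc2a2 and Slc2a3, the share on Slc2a2 was 99.5 to 99.8% in kidney and 0.93 to 1.61% in brain. Slc2a2 had 2840, 2128 and 1405 footprints in kidney and 21, 5 and 19 in brain (7.22, standard error 0.24), while Slc2a3 had 9, 5 and 7 in kidney and 1280, 532 and 1604 in brain (-7.24, standard error 0.22). Each of these transporters was thus nearly confined to 1 tissue. The water channels Aqp1 and Aqp4 gave 94.9 to 96.4% on Aqp1 in kidney and 3.12 to 4.66% in brain.

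Other pairs were additions rather than exchanges. Eef1a1 had 7491, 3460 and 4878 footprints in kidney and 5246, 2863 and 5695 in brain, which did not differ by the test (0.22, adjusted p = 0.26), while Eef1a2 had 8, 4 and 4 in kidney and 7392, 3896 and 7347 in brain (-10.16, standard error 0.21). The brain thus held footprints on both and the kidney almost none on Eef1a2. In the list of 8 translation elongation factors, Eef1a2 and Eif5a2 (-3.80) were called brain-higher and 6 were not called. That is near the 27.5% of all tested genes called brain-higher. The share on Eef1a1 was 99.9% in kidney and 41.5 to 43.7% in brain. Because 89% of the windows of Eef1a1 lie also in other genes and 0.22% of those of Eef1a2, its level is less certain than that of its partner. Eno1 (0.36) and Eno2 (-9.17), Kif5b (-0.14) and Kif5a (-6.86), and Atp1b1 (-0.12) and Atp1b2 (-5.12) showed the same form, with 1 member below the 2-fold limit and the other called brain-higher. For Eno1, 90.5% of the windows were shared with other genes, so its level is likewise less certain. Kif5a and Kif5b are kinesin heavy chains, and Atp1b1 and Atp1b2 are beta subunits of the sodium pump.

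Of 15 genes of the vacuolar proton pump, 4 were called brain-higher, 1 kidney-higher and 10 neither. Of all tested genes, 27.5% were called brain-higher and 25.5% kidney-higher, so the brain-higher calls were near that level. The share of the 15 genes was higher in brain, at 0.715 ± 0.0236% against 0.452 ± 0.0127% (SD, n = 3). The pairs of subunits of this pump included a member of the kidney. Atp6v1b1 had 1151, 763 and 543 footprints in kidney and 12, 1 and 8 in brain (6.90), but it took only 19.7 to 24.0% of the footprints of the pair in kidney, the rest lying on Atp6v1b2 (-0.20). Atp6v0a4, the subunit of acid-secreting cells, took 80.0 to 80.2% in kidney and 0.06 to 0.19% in brain, and its partner Atp6v0a1 was called brain-higher (-2.89). Metallothioneins also differed by member. Mt3, the neuronal form, had 707, 418 and 766 footprints in brain and 19, 18 and 10 in kidney (-5.32), and Mt1 had 1068, 782 and 1360 against 706, 624 and 447 (-0.83), below the 2-fold limit, which it passed without kidney replicate 2 (-1.01) and with library totals alone (-1.05). Lactate dehydrogenase showed nearly no exchange, with 32.3 to 33.4% on Ldha in kidney and 28.8 to 32.0% in brain. Of the windows of Ldha 61.7%, and of those of Ldhb 57.9%, were shared with other genes, so these shares are less certain. Tuba1b took 55.0 to 55.6% of the pair in kidney and 43.5 to 43.8% in brain, but nearly all windows of both genes are shared, so these values may mix the members.

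**Figure D4:**
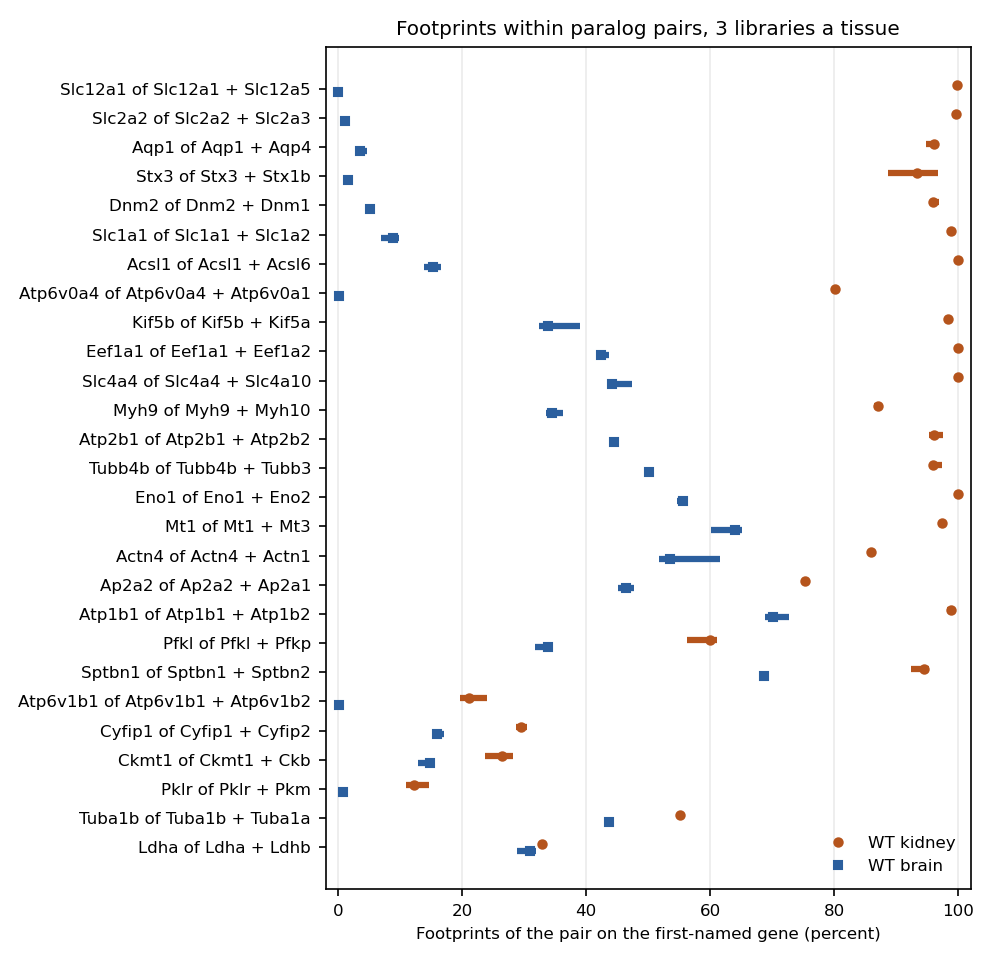
Percent of the footprints of each of 27 of the 29 gene pairs that lie on the first-named gene, with the median (symbol) and range (bar) of 3 WT kidney libraries in orange and 3 WT brain libraries in blue. Slc12a1 and Slc2a2 lie near 100% in kidney and near 0% in brain, and Ldha and Tuba1b differ least.

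Brain footprints were spread over more genes and longer proteins. The number of genes that together held 50% of the footprints was 959, 820 and 814 in kidney and 1247, 1154 and 1207 in brain. The 10 leading genes held 3.66 to 4.49% in kidney and 2.68 to 2.93% in brain. Weighted by footprints, the mean protein length was 634, 622 and 592 amino acids in kidney and 754, 682 and 718 in brain. For both measures all brain libraries were above all kidney libraries (exact permutation test over 3 against 3 libraries, two-sided p = 0.1, the smallest possible). Kidney minus brain, the difference in mean length was -101.7 amino acids, and it was -37.3 when each gene was weighted by counts per codon. Proteins longer than 1000 and up to 2000 amino acids took 9.52, 9.14 and 8.28% of kidney footprints and 14.7, 13.0 and 14.0% of brain footprints. In that class 577 of 1688 tested genes were called brain-higher and 303 kidney-higher, whereas among proteins longer than 150 and up to 300 amino acids 620 of 2841 were called brain-higher and 843 kidney-higher. Of all tested genes, 27.5% were called brain-higher and 25.5% kidney-higher. The median protein length was 419 amino acids for the genes called kidney-higher, 515 for those called brain-higher and 467 for all tested.

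**Figure D5:**
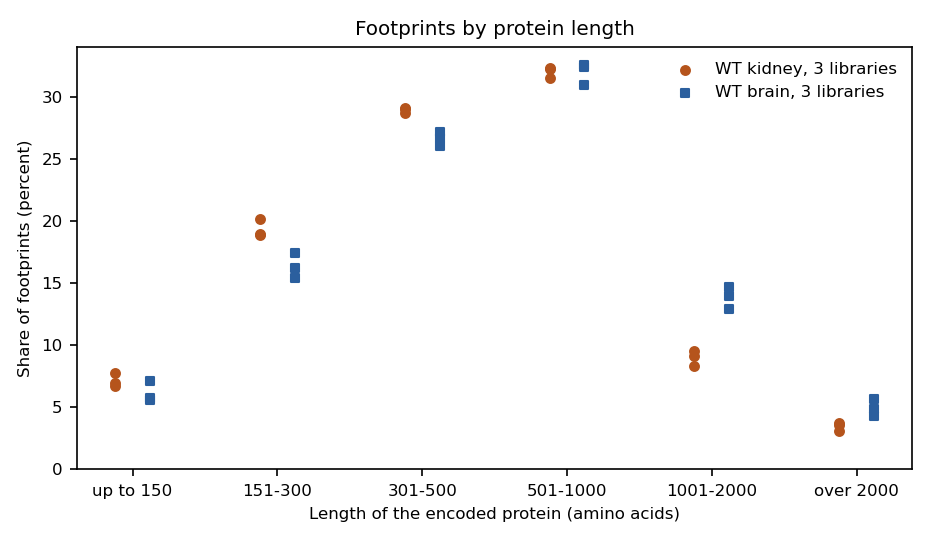
Share of the footprints of each WT library (percent) by length of the encoded protein (amino acids), with 3 kidney libraries as orange circles and 3 brain libraries as blue squares. Brain exceeds kidney in both classes above 1000 amino acids, and kidney exceeds brain in the classes from 150 to 300 and from 300 to 500.

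Most of these calls were also made in mice without Rpl41. The KO fit called 26.5% of 15318 genes kidney-higher and 28.3% brain-higher. Of the WT calls that could be tested in KO, 3567 of 3779 kidney-higher genes (94.4%) and 3863 of 4083 brain-higher genes (94.6%) were called in the same direction, and none in the opposite one. Among those not called in KO were mt-Co3 (0.979) and mt-Atp8 (0.996), which lay just under the 2-fold limit there, and Bhmt (adjusted p = 0.075 from edgeR). These were other mice, but of another genotype. For Lrp2 the KO difference was 9.31, for Aldoc, an aldolase of the brain, -5.08 and for Slc1a2 -8.12, all on the log2 scale. Each kept the direction of its WT value, which was 8.52, -5.19 and -8.55 in that order.

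RNA gave a less close picture. The RNA fit called 24.4% of 16025 genes kidney-higher and 32.2% brain-higher, and its median log2 difference was -0.12. With all transcripts in 1 fit the RNA calls were 4532 kidney-higher and 4594 brain-higher, and the median was 0.10. Of the footprint calls that could be tested in RNA, 2979 of 3692 kidney-higher genes (80.7%) and 3499 of 3988 brain-higher genes (87.7%) were called in the same direction. For 89 kidney-higher and 16 brain-higher genes the RNA was called in the opposite direction. Of these 89, 59 shared more than 50% of their windows with other genes, against 1528 of all 14918 tested genes. The 89 included mt-Co3, with 1.05 in footprints and -10.12 in RNA and nearly all windows shared, and mt-Atp8 (1.10 and -15.45), with 7.47% shared. Mean RNA levels were 12.6 CPM in kidney and 16368 in brain for mt-Co3, and 0.0904 and 5146 for mt-Atp8. For mt-Co1 they were 27174 and 31599. The 13 mitochondrial genes together held 13.6 to 16.9% of kidney RNA counts and 11.5 to 16.9% of brain RNA counts. The split thus lay in single genes and not in the list as a whole. How reads were assigned among these genes was not tested. Rps6, which was chosen after its values were seen, showed a similar split without being called in footprints (0.26 and -6.83). Of its windows 100% were shared with other genes. Among the 16 brain-higher genes were the liver-made proteins Alb (-4.82 in footprints and 2.15 in RNA), Fabp1 (-3.62 and 3.20), Apoa2 (-3.54 and 1.96) and Fgb (-1.98 and 4.51). Differences between footprints and RNA were not tested as such.

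For Lrp2 the log2 difference was 11.16 in RNA and 8.52 in footprints. For Aldoc it was -5.69 in RNA and -5.19 in footprints, and for Slc1a2 -8.46 and -8.55. These are separate fits of separate libraries, set side by side.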

How the data were processed

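The authors digested tissue lysates with RNase I, purified ribosomes through sucrose, selected fragments by size and depleted rRNA for Ribo-seq, while RNA-seq used mRNA selected by its poly(A) tail. Alignment was by STAR (GRCm38), keeping reads that map to several places, and counting by featureCounts, with versions not given in the sources used here. They deposited raw counts per transcript, without normalization. A further table of 28 value columns could not be assigned to samples and was not used.

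Transcripts were joined to GENCODE M21 (GRCm38), which matched 141374 of 142604, and the transcript with the longest protein stood for each gene. A symbol held by more than 1 gene stands for the gene with more footprints. Counts were fitted with edgeR's quasi-likelihood test after filterByExpr and TMM scaling, separately for WT footprints, KO footprints and WT RNA, with tissue as the only term. Calls needed a Benjamini-Hochberg adjusted p under 0.05 and a log2 difference of at least 1. CPM are counts scaled to the library's total on these transcripts. Where a tissue held 10 counts or fewer in all, the ratio of pooled counts is given with an exact 95% interval. Shares, gene numbers and lengths were compared by exact permutation over libraries. Shared windows are the percent of 28-base windows of a coding sequence found in transcripts of other genes. The depth of 2401861 to 7115695 counts per library limits genes with few counts, and intervals cover counting error only. The test was checked on simulated counts in which 200 of 14710 genes were changed by 2 on the log2 scale. It recovered 197 of these and called 12 of 14510 unchanged genes. Far fewer genes differed there than between the tissues, so the check does not cover the scaling of such data.

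Genes named are the 10 with the highest share per tissue, the 5 largest called differences per direction among genes with at least 10 counts in each library, the top and extreme members of each list, both members of each pair and the 5 highest per codon. Some items that this rule names are not reported here. Members and lists were chosen with earlier results of these data known. The liver, pancreas and sperm lists, Gapdh and Rps6 were chosen after values were seen. Of 513 list entries, 3 had no match. Alternatives were DESeq2, other scalings, filters and transcripts, voom weights, a replicate block and each library left out. R 4.3.3, edgeR 4.0.16, limma 3.58.1, DESeq2 1.42.0, Python 3.11.15, numpy 2.4.6 and pandas 2.3.3 were used.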

Additional observations from a re-analysis of the deposited data

How the results depend on the processing

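Between 7843 and 8740 genes were called in footprints under the other tools, scalings, filters and transcripts, beside 7908, except with at least 10 counts in every library, which tests fewer genes and called 4581 in footprints, 4739 in KO footprints and 5992 in RNA. Leaving out each library in turn gave 7984 to 8228 calls in footprints, 8331 to 8777 in KO footprints and 8937 to 9385 in RNA. With a replicate block 7923 genes were called in footprints, 8406 in KO footprints and 9003 in RNA. The numbers were not treated as pairing the tissues, because the sources do not say which libraries came from the same mouse. Deviations of same-numbered libraries from the tissue mean correlated at 0.30, 0.054 and 0.016. Kidney replicates 2 and 3 correlated best with brain libraries of another number. With 3 libraries per tissue, whose deviations depend on each other, these values cannot decide whether the numbers pair the tissues. A further pair of alternatives was chosen after seeing the data. Without both replicate 1 libraries 7826 genes were called, and among genes with under 10% shared windows 6757 were.

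Differences near 0 changed sign. Those of Amy2a5 and Ctrb1, at 1.31 and 1.95 with all libraries, were not near 0 and changed sign without kidney replicate 1. The cause of these changes was not tested. With each library left out in turn, the log2 difference ranged from -0.22 to 0.092 for Ubb, -0.42 to 0.46 for Hbb-bs and Hbb-bt, -0.22 to 0.12 for Cox7a2l, -0.090 to 0.13 for Hsp90b1, -0.016 to 0.22 for Rpl4, -0.22 to 0.0022 for Atp1b1, -1.24 to 7.57 for Amy2a5 and -0.71 to 7.53 for Ctrb1. With no filter, Cox7a2l was 0.012 and Hsp90b1 0.019. Cox7a2l was 0.012 without both replicate 1 libraries. Hsp90b1 was 0.058 with limma voom and 0.080 among genes with few shared windows. Rpl4 was -0.11 with library totals alone and -0.015 with at least 10 counts in every library. The difference in share, in percentage points, ranged with each library left out from -0.167 to 0.0600 for erythroid cells and -0.0364 to 0.130 for cytosolic ribosomal proteins. With counts per codon it was -0.119 for the choroid plexus and -0.128 for ribosomal proteins. Among named genes near the 2-fold limit, mt-Co1, mt-Co3, mt-Atp8, Atp5b, Dnm2, Ldhb, Psma4 and Cldn5 were not called under some settings.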

Other observations

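Sperm chromatin genes, not named in the comparisons above, had footprints in brain. Prm1 had 16, 35 and 37 footprints in brain and 0, 1 and 0 in kidney, and Prm2 had 24, 45 and 21 in brain and 0, 0 and 2 in kidney. Both are among the genes called brain-higher above, at -6.11 and -5.41. WT brain RNA-seq held 0 to 2 counts of Prm1 and 0 of Prm2. KO brain Ribo-seq held 7 to 23 counts of Prm1 and 8 to 28 of Prm2. Gapdh, a glycolytic enzyme with many processed pseudogenes, had 13, 3 and 2 footprints in kidney and 8, 4 and 3 in brain on its longest-protein transcript, of whose 28-base windows 94% lie also in other genes.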
